A study of Arabidopsis thaliana with 6 samples.

Results

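Mature pollen of an Arabidopsis insertion line called TF2 was compared with that of another insertion line called TF1. Members were the arrays whose titles carry these line names, 2 for TF2 and 2 for TF1, which made 4 of the 6 Affymetrix ATH1 arrays in the series. The TF1 line has stock code SAIL_1168_C11 and the TF2 line SALK_018864, so each comes from its own T-DNA collection, and both are in the Col-0 background. From outside the labels, SALK_018864 is known to disrupt BZIP34, which encodes a bZIP transcription factor of pollen. For TF1 the sources used here name no target gene. The title of the series names transcription factors of the gametophyte. All plants, including the Col-0 wild type with 2 arrays of its own, grew on compost indoors (21 °C, 75% humidity), and total RNA was taken from mature pollen. Wild-type signals are given for orientation and did not enter the test. Each line is a single insertion allele. The labels leave unsaid if a line's replicates are separate pollen collections, so p-values measure no more than the spread between these arrays, and that spread may be technical.

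In a mature pollen grain the sperm cells lie inside a vegetative cell, which grows the pollen tube. The grain is dry when shed and carries a store of messenger RNA, proteins and protectants that serves the fast growth of the tube after it lands on the stigma. Genes for wall-loosening enzymes, pectin enzymes, actin-based transport, ion transport and secreted peptides are strongly expressed in it, and photosynthesis genes are not part of its usual programme. Pollen plastids lack the photosynthetic membranes of leaf chloroplasts.

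Values are array signals in linear intensity units. Differences are log2(signal + 9.39) of TF2 minus TF1, a scale that understates the change of dim probe sets. The median signal of an array lay between 33.6 and 43.0. Log2 signals of the replicate arrays correlated at 0.916 in TF1 and 0.902 in TF2, and arrays of different lines at 0.864 to 0.881, over the 11373 tested probe sets, which share each array's RNA and scaling. Manufacturer control probe sets also differed between the lines. The 3′ actin control was lower in TF2, with 220.2 and 231 in TF1 against 99.6 and 138 in TF2, and so was the 3′ GAPDH control, with 229.6 and 225 against 92.6 and 139. A 5′ actin control went the other way, with 102 and 172 in TF1 against 229 and 349 in TF2. Another 5′ actin control overlapped between the lines, with 55.7 and 128 against 90.6 and 64.1. A mid-gene actin control read 214 and 219 against 221 and 257. The 5′ GAPDH controls were lower in TF2, at 71.5 and 132 against 49.2 and 31.2 and at 166 and 146 against 135 and 114. So was the mid-gene GAPDH control, at 183 and 151 against 99.2 and 116. The 25S ribosomal RNA control read 260.2 and 2749 in TF1 and 9968 and 8717 in TF2, and the ubiquitin 3′ control 5055 and 3842 against 4108 and 4651. A control named U12639 read 2141 and 1600 in TF1 against 26.4 and 18.99 in TF2. The target of U12639 is not named in the tables used here, so whether it reports a pollen transcript is not known. TF1 replicate 2 stood apart from replicate 1 in 25S ribosomal RNA, and the part of these controls in any difference below was not tested.

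**Figure D1:**
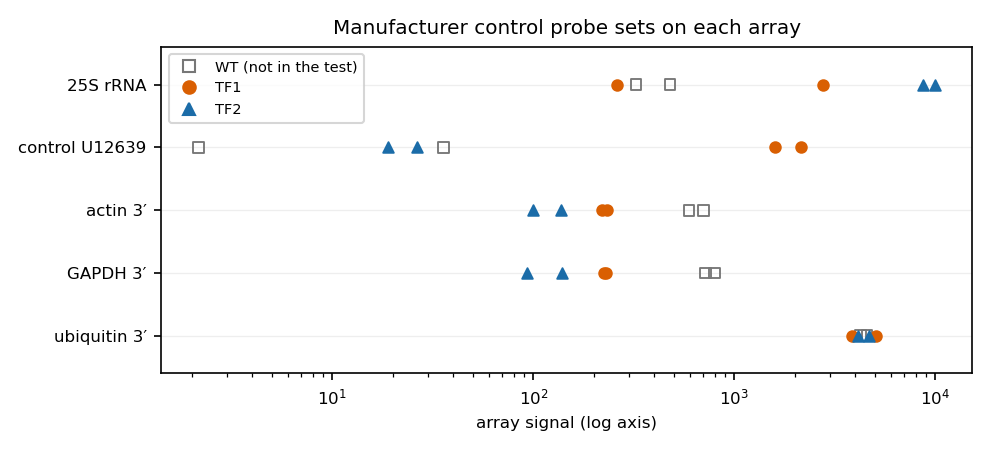
Signals of 5 manufacturer control probe sets (log axis, array intensity) on each array, with open squares for wild type, circles for TF1 and triangles for TF2, 2 arrays each. The 25S ribosomal RNA control was highest on the TF2 arrays (9968 and 8717), U12639 was high on the TF1 arrays (2141 and 1600) and the ubiquitin control overlapped between the lines.

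BZIP34, which the TF2 stock is known to carry an insertion in, read 27.7 and 59.8 in TF1, 128 and 123 in TF2 and 35.5 and 55.7 in wild type. Its difference of 1.41 did not pass the threshold (SE 0.44, adjusted p = 0.146) and among the alternatives did so only without TF1 replicate 2 (adjusted p = 0.0447). The position of its probes against the insertion was not determined, so this gene does not check the labels.

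Pollen of the lines differed mostly through transcripts that were lower in TF2. Of 11373 probe sets tested, 267 (2.35%) passed limma's adjusted p of 0.05, of which 211 (1.86%) were lower in TF2 and 56 (0.492%) higher. The difference was at least 4-fold for 74 of the lower and 13 of the higher ones. The median difference was −1.57 among the lower probe sets, 1.17 among the higher and 0.04 over all tested. No called probe set had overlapping arrays, but neither did 45.3% of all tested probe sets, so separation of the arrays alone marks little. The excess of lower calls depended on which arrays entered the fit: 20 probe sets were higher without TF2 replicate 1 and 7 without TF2 replicate 2, against 140 without TF1 replicate 1 and 104 without TF1 replicate 2, while the lower count went from 142 to 215. When the prior variance was not allowed to follow signal intensity, 0 probe sets passed limma's adjusted threshold, and 1283 had an unadjusted p under 0.05.

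**Figure D2:**
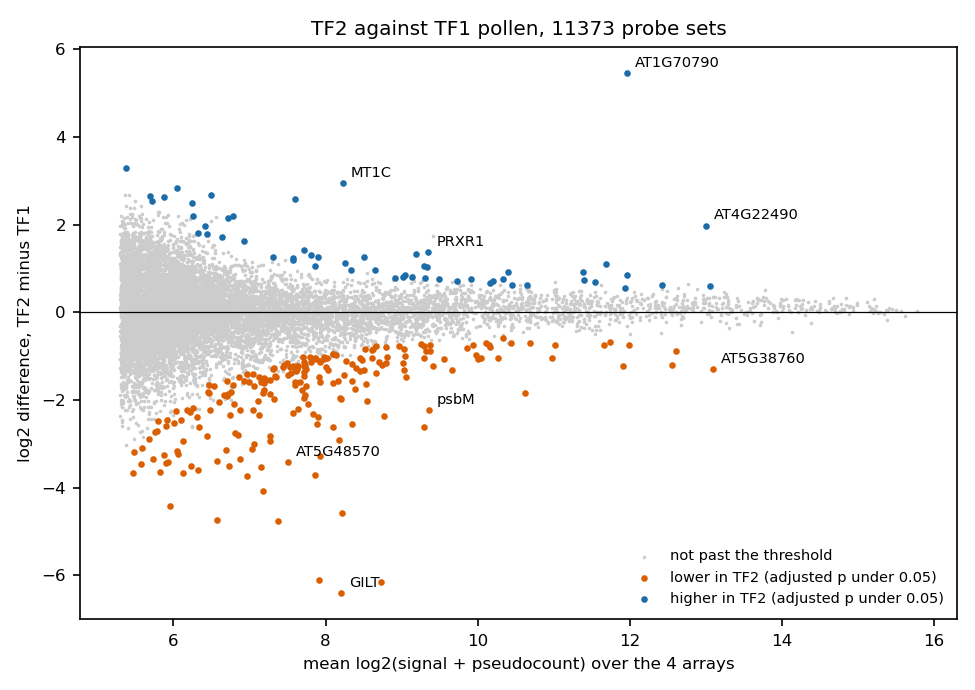
Each point is a tested probe set, with the mean log2(signal + 9.39) over the 4 arrays on the x axis and the log2 difference, TF2 minus TF1, on the y axis. Orange points (211) were lower and blue points (56) higher in TF2 at limma's adjusted threshold. AT1G70790 at 5.46 and GILT at −6.40 lie at the ends.

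A single gene was listed for 144 of the called probe sets (2.25% of the 6394 such probe sets tested), with 108 lower (1.69%) and 36 higher in TF2 (0.563%). They stood for 143 genes, 108 lower and 35 higher. The shares of probe sets with 1 gene are the background for each count of called list members below. A list of few genes gives no firm rate of its own. Another 112 called probe sets had no gene in the annotation used here and 11 had several, so the functions below cover part of the difference. A role known with some confidence could be given to 93 of the 143 genes. These roles were assigned by hand after the values were seen, and only to called genes, so their counts have no background of their own. By these roles, 15 genes belong to the chloroplast genome, 6 encode cytosolic ribosomal proteins, 7 are late embryogenesis abundant or desiccation proteins and 7 serve respiration or carbon metabolism, and all of these were lower in TF2. Of 10 small secreted proteins 9 were lower, of 6 cell wall genes 5 and of 8 redox genes 5. Protein turnover had 5 of 7 lower, and chaperones and stress proteins 4 of 5. C2-domain and calcium-binding proteins had 4 of 6 lower, lipid genes 3 of 4, membrane transport 3 of 4 and flavonoid genes 2 of 2. The cytoskeleton (2 higher, 2 lower) and transcription factors (1 higher, 1 lower) were split evenly. Of all 143 called genes 108 were lower, so a majority of lower genes in a role marks nothing by itself. Among the 50 genes without an assigned role, 20 were higher and 30 lower.

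Wild-type signals placed the lower genes in different ways. For 121 of the 211 probe sets lower in TF2 both wild-type arrays lay above both lines, so that TF1 was itself under wild type. For 54 the wild type lay between the lines, and for 8 it lay below both. Among the 56 probe sets higher in TF2, the wild type lay below both lines for 24, between them for 15 and above both for 2. For the remaining probe sets the range of the wild-type arrays overlapped that of a line. These placements describe 2 arrays a group and were not tested. They were counted for called probe sets only, so they have no background and mark no trait of the called ones.

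The gene with the largest difference in the upward direction was AT1G70790, which encodes a protein with a C2 domain, a fold that binds membrane lipids, often with calcium. It read 542 and 646 in TF1 and 25705 and 27314 in TF2, with the wild type at 11619.7 and 12405. TF2 was thus above and TF1 below the wild type, with no overlap between groups (log2 difference 5.46, SE 0.14, adjusted p = 8.86e-11). AT1G70810, another C2-domain gene separated from it by 1 coding gene on chromosome 1, went the other way, from 599 and 439 to 168 and 258 (−1.26, adjusted p = 0.0153), and was named after its values were seen. MT1C, which encodes a metallothionein, a small cysteine-rich metal-binding protein, read 128 and 74.3 in TF1 and 721 and 942 in TF2 (2.96, SE 0.26, adjusted p = 3.09e-05). Wild type read 968 and 839 for it, overlapping TF2, and TF1 lay under both other groups. AT4G22490, of the lipid transfer protein superfamily whose members are small secreted proteins that bind lipids, was bright in all groups. Its signal was 4127 and 4074 in TF1 and 17447 and 15095 in TF2 (1.98, SE 0.14, adjusted p = 3.11e-06), with wild type below both at 2814 and 2616.

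AT5G59170, an extensin-like proline-rich wall protein gene, read 87.9 and 55.3 in TF1 and 443 and 486 in TF2 (2.58, SE 0.27, adjusted p = 0.000164). PRXR1, a class III peroxidase gene, read 412 and 379 against 1067 and 1011 (1.37, SE 0.16, adjusted p = 0.000387), and its wild-type signals of 828 and 846 lay between the lines. These 5 genes named so far as higher in TF2 (AT1G70790, MT1C, AT4G22490, AT5G59170 and PRXR1) kept their call under every alternative run except the fit without the intensity trend. Several others of the 15 largest upward differences were dim in TF1. AT3G27325, whose product resembles a remodelling enzyme of GPI anchors, read 3.06 and 4.78 against 135 and 109 (3.30, adjusted p = 0.0446). AT2G17590, of the Cys/His-rich C1 domain family, read 7.13 and 27.7 against 190.3 and 147 (2.84, adjusted p = 0.0139). AT2G30660, of a family of acyl-CoA hydrolases, read 14.4 and 8.56 against 129 and 113 (2.65, adjusted p = 0.042). For these 3 dim genes the lines did not overlap, which also held for 45.3% of all tested probe sets. Each call was lost under at least 1 alternative, with limma's adjusted p up to 0.0889 for AT3G27325 and 0.113 for AT2G30660. AT2G17590 lost its call with all 6 arrays in the fit and without either TF2 replicate. AT3G27325 was measured in 8 and AT2G30660 in 9 of the 11 alternatives besides the fit without a trend.

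AT5G58370, a GTPase-like gene, differed by 1.64 (adjusted p = 0.018) and AT1G14330, a kelch-repeat gene, by 1.42 (adjusted p = 0.0233), and both calls were lost without TF2 replicate 2, at adjusted p = 0.157 and 0.227. AT2G22350, AT2G35900, AT5G49440, AT5G64160 and AT2G13940, for which no role is given here, were higher by 2.55, 2.19, 1.79, 1.27 and 1.26. Each of these 5 calls was lost under 2 to 4 alternatives besides the fit without a trend, at adjusted p-values up to 0.216, 0.0912, 0.171, 0.163 and 0.194. Other bright genes that were higher in TF2, beside AT1G70790 and AT4G22490, had smaller differences. AT4G18395 read 2911 and 3002 against 4981 and 5689 (0.85, adjusted p = 0.00368), AT2G19000 differed by 0.63 and AT3G23170 by 0.61. AT5G54130, a gene for a calcium-binding protein of the endonuclease and phosphatase superfamily, was called on both of its probe sets, with differences of 0.92 and 0.69. The calls of AT2G19000 and AT3G23170 were lost under 6 and 7 of 11 alternatives besides the fit without a trend, that of AT5G54130 on the probe set with the smaller difference under 4 and that of AT4G18395 without TF2 replicate 2 (adjusted p = 0.0722).

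**Figure D3:**
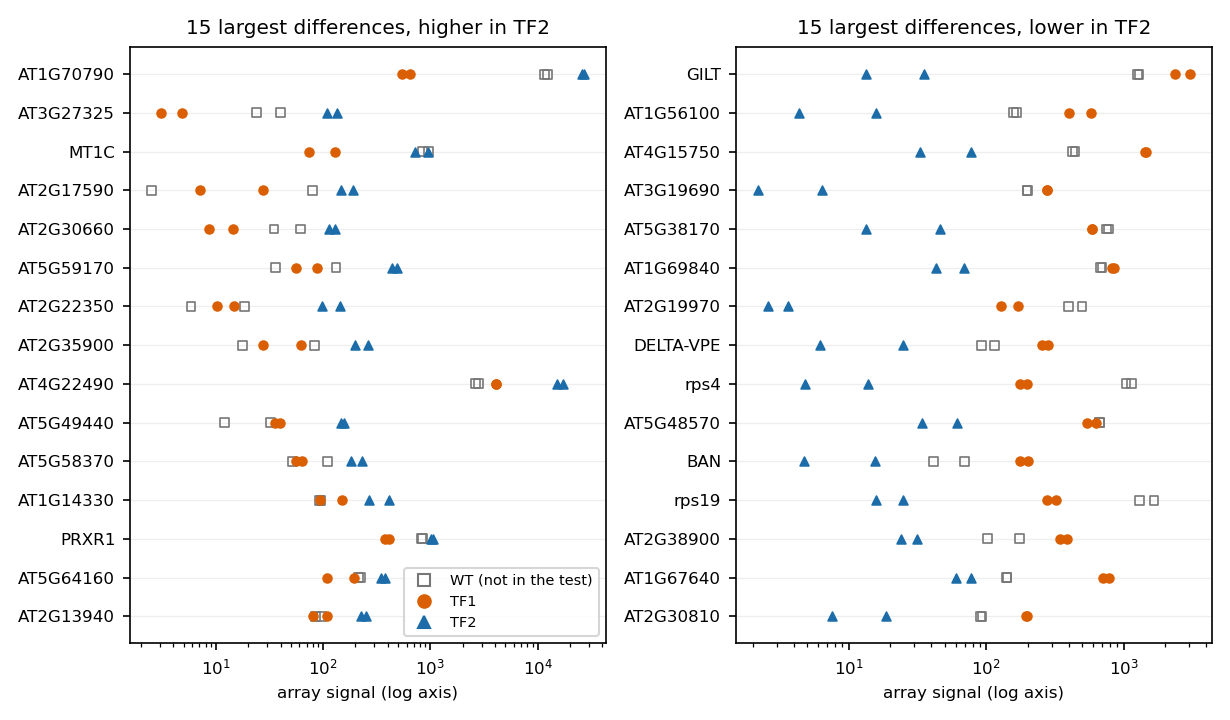
Signals (log axis, array intensity) of the 15 genes with the largest difference in each direction among called probe sets with 1 gene, with 1 row per gene and 1 mark per array. TF1 circles and TF2 triangles do not overlap in any row, and the wild-type squares, not in the test, lie near TF2 for MT1C, between the lines for GILT and above both lines for rps19.

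The largest difference of all named genes was that of GILT, which encodes a gamma-interferon-inducible lysosomal thiol reductase-like protein, a family that reduces disulfide bonds in proteins. GILT read 2383 and 3057 in TF1, 35.6 and 13.4 in TF2 and 1293 and 1257 in wild type. TF2 was far under both other groups and TF1 above the wild type (−6.40, SE 0.29, adjusted p = 7.98e-08). AT4G12890, of the same family and on the same chromosome with 6 coding genes between, read 186 and 187 against 50.2 and 55.9 (−1.65, adjusted p = 0.0215). Of the 3 family members tested 2 were lower in TF2 (1.69% of all probe sets with 1 gene were). All 3 differences lay below 0, with a median of −1.65. AT4G12980, separated from GILT by 1 coding gene and of the cytochrome b561 type, also was lower, from 132 and 134 to 20.1 and 21.1 (−2.25, adjusted p = 0.0296). AT4G12890, AT4G12980 and the family list were chosen after their values were seen.

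Genes of secreted and wall proteins were among the rest of the 15 largest downward differences. Their share of all tested genes was not counted. AT4G15750 and AT1G56100 encode proteins of the invertase and pectin methylesterase inhibitor family, small secreted proteins that bind and block those enzymes. AT4G15750 read 1458 and 1429.6 in TF1 and 77.6 and 33.3 in TF2, with wild type between at 442 and 424 (−4.58, SE 0.29, adjusted p = 1.50e-06). AT1G56100 read 402 and 581 against 15.7 and 4.35, with wild type at 158 and 166 (−4.73, SE 0.42, adjusted p = 3.10e-05). Both were thus higher in TF1 and lower in TF2 than in wild type. AT5G07420, a pectin methylesterase gene among the brightest that were lower, read 8197 and 8732 against 4494 and 4753 (−0.87, adjusted p = 0.00259). Of 17 tested genes for xyloglucan enzymes and expansins, which loosen the wall, 2 were lower in TF2 and the median was 0.10. Over all probe sets with 1 gene, 1.69% were lower. EXPA24, an expansin, read 874 and 905 against 437 and 422 (−1.03, adjusted p = 0.00354), and the call was lost without TF2 replicate 2 (adjusted p = 0.0528). EXLA1, an expansin-like gene, read 157 and 138 against 35.6 and 45.8 (−1.65, adjusted p = 0.0467), a call lost under 7 of 11 alternatives. Of 20 tested wall glycosyl hydrolases 0 passed limma's adjusted threshold and 4 had an unadjusted p under 0.05, with a median of −0.12.

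Some lipid transfer protein genes (AT5G38170 and AT5G38160) and some CAP genes were among those for small secreted proteins that were lower. AT4G22490, of the lipid transfer protein superfamily, was higher, as given above. The 1 tested gene on the symbol list of lipid transfer proteins, oleosins and lipases was not called, at 0.83. AT5G38170 read 586 and 586 in TF1 and 13.3 and 46.0 in TF2 (−4.07, SE 0.38, adjusted p = 5.79e-05). Its direct neighbour on chromosome 5, AT5G38160, named after its values were seen, read 415 and 421 against 34.0 and 62.2 (−2.94, adjusted p = 0.000164). For both genes wild type lay above both lines, at 773 and 747 and 554 and 531. AT3G19690 and AT2G19970 belong to the CAP family of secreted cysteine-rich proteins, to which pathogenesis-related protein PR1 belongs. AT3G19690 read 277 and 277 against 2.18 and 6.45 (−4.40, SE 0.52, adjusted p = 0.000387), and AT2G19970 read 128 and 171 against 2.6 and 3.62 (−3.65, SE 0.73, adjusted p = 0.0188). In TF2 both lay at the bottom of the array's range. Of 9 tested CAP genes taken by locus, a list added after the values were seen, these 2 were lower. Over all probe sets with 1 gene, 1.69% were lower. The median of the 9 CAP genes was −0.37. That median turned to 0.21 without TF1 replicate 1 and to 0.32 without TF1 replicate 2, where the called members fell under the filter on dim probe sets. LCR69, a defensin-like gene, read 172 and 213 against 22.4 and 24.5 (−2.61, adjusted p = 0.00396), as 1 of 6 tested genes for defensin-like and small secreted peptides, whose median was 0.01, and its call was lost without TF1 replicate 2 (adjusted p = 0.0727). AT2G30810, of the gibberellin-regulated family of cysteine-rich peptides, read 199 and 194 against 18.7 and 7.58 (−3.24, adjusted p = 0.00325), a call lost without either TF1 replicate, at adjusted p-values up to 0.0925. AT2G38900, a protease inhibitor of the potato inhibitor type, read 344 and 388 against 23.9 and 31.5 (−3.34, SE 0.33, adjusted p = 8.74e-05).

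BAN and DELTA-VPE, both best known from the seed coat and set together here after their values were seen, were lower in TF2. BAN encodes anthocyanidin reductase, the enzyme that opens the branch to proanthocyanidin tannins, and DELTA-VPE encodes a vacuolar processing enzyme, a protease of the inner seed coat. DELTA-VPE read 254 and 284 in TF1, 24.9 and 6.2 in TF2 and 116 and 93.0 in wild type (−3.59, SE 0.47, adjusted p = 0.000978). BAN read 203 and 176 in TF1, 15.4 and 4.77 in TF2 and 41.5 and 70.0 in wild type (−3.40, SE 0.55, adjusted p = 0.0041), and its call was lost without TF1 replicate 1 (adjusted p = 0.183) and without TF1 replicate 2 (0.089). CHIL, a chalcone isomerase-like gene of the flavonoid pathway named after its values were seen, read 125 and 137 against 5.07 and 9.16 (−3.10, adjusted p = 0.0291). All 3 genes were highest in TF1, with wild type between the lines. Of 4 tested genes on the flavonoid and seed coat list BAN was called lower (1.69% of all probe sets with 1 gene were). On that list 1 difference lay above 0 and the median was −0.87. BAN was the single seed coat marker with a probe set of its own, out of 9 markers listed, and its part as a sign of seed coat tissue was not tested.

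The chloroplast genome stood out among the chromosomes. Of its 56 tested genes 15 (26.8%) were lower in TF2 and 0 higher, with a median difference of −1.14, against 1.49% to 2.63% of probe sets called on the 5 nuclear chromosomes, whose medians lay between 0.05 and 0.10. The genes share an organelle and its RNA, so they are not independent of each other. Their summed signal was already low in TF1: for the 35 photosynthesis genes it was 6070 and 6445 in TF1 and 2428 and 2336 in TF2, against 41772 and 33183 in wild type. The groups did not overlap. In bulk pollen RNA, fewer cells of a type and less RNA per cell cannot be told apart. The 3′ actin control and the 3′, mid-gene and 5′ GAPDH controls lay in the same order over the groups. A 5′ actin control went the other way and another overlapped between the lines, as given above. The part of these controls was not tested. The count of chloroplast genes called lower was 12 without TF1 replicate 1, 8 without TF1 replicate 2, 9 without TF2 replicate 1, 10 without TF2 replicate 2, 8 without the filter on dim probe sets and 31 with all 6 arrays in the fit, with medians between −1.18 and −1.10 when an array was left out.

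Within the chloroplast genome most functional classes shared the shift. Photosystem II uses light to split water, and 3 of its 12 tested genes were lower, with a median of −1.21. psbM, for a small subunit of that complex, read 1259 and 1582 in TF1, 342 and 250.5 in TF2 and 10032 and 5032 in wild type (−2.23, SE 0.19, adjusted p = 2.60e-05). psbI, for another small subunit, read 252 and 236 against 44.0 and 45.2 (−2.23, adjusted p = 0.00214). Both kept their call under every alternative except the fit without a trend. Photosystem I had a median of −2.12 over 4 genes, of which psaI was called, at 106 and 199 against 28.8 and 19.98 (−2.22, adjusted p = 0.0305), a call lost when dim probe sets were kept and without TF1 or TF2 replicate 2, at adjusted p-values up to 0.377. The NDH complex, which feeds electrons back into the plastoquinone pool, had 2 of 7 genes lower and a median of −1.24. Its ndhG read 187 and 179 against 8.15 and 27.1 (−2.93, adjusted p = 0.0072), a call lost without either TF1 replicate, at adjusted p-values up to 0.0999. The cytochrome b6f complex had 1 of 5 genes lower (median −1.15) and ATP synthase 1 of 4 (median −0.78).

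Chloroplast genes outside photosynthesis also were lower in TF2 where they were called. Of 12 tested genes for plastid ribosomal proteins 3 were lower, with a median of −1.44. rps19 read 277 and 324 in TF1 and 15.8 and 24.8 in TF2 (−3.40, SE 0.38, adjusted p = 0.000246), and rps4 read 199 and 176 against 4.82 and 13.7 (−3.44, SE 0.55, adjusted p = 0.00407). rpl33 read 207 and 169 against 48.0 and 30.3 (−2.04, adjusted p = 0.0129). The call of rps4 was lost without TF1 replicate 2 (adjusted p = 0.0992), and that of rpl33 without TF1 replicate 1 (0.0805) and without TF2 replicate 2. For these 3 genes wild type lay above both lines, at up to 1665 for rps19. ccsA, needed to attach haem to c-type cytochromes, read 575 and 442 against 102 and 84.8 (−2.33, SE 0.25, adjusted p = 0.000158). The 4 genes for the plastid's own RNA polymerase differed from this pattern in their values, with a median of 0.00, 0 called and a range from −0.87 to 1.46, and whether they differ from the other classes was not tested. Nuclear genes for photosynthesis and the Calvin cycle had 0 of 7 tested members past limma's adjusted threshold and 0 with an unadjusted p under 0.05, and their median was 0.42, with 0.07 without TF2 replicate 2 and 0.14 without TF1 replicate 2. Their summed signal was 515 and 548 in TF1 and 495 and 743 in TF2, against 4450 and 4249 in wild type, so the lines overlapped while both lay under wild type. Of 12 tested mitochondrion-encoded genes 0 passed limma's adjusted threshold and 1 had an unadjusted p under 0.05, with a median of −0.54 that turned to 0.12 without TF2 replicate 1.

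**Figure D4:**
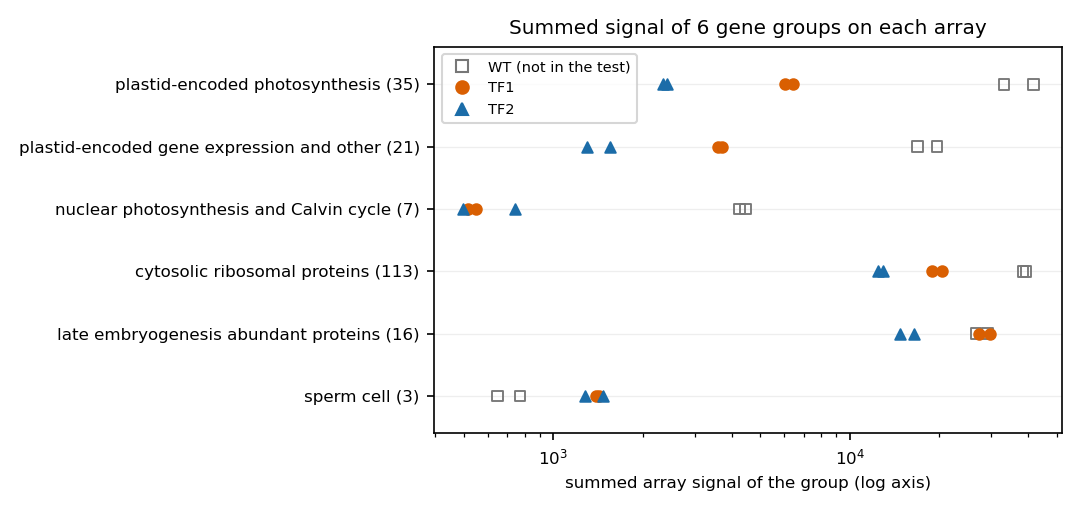
Summed signal (log axis, array intensity) of the tested genes of 6 groups on each array, with the number of genes in brackets. The lines are apart for both groups of plastid-encoded genes, for cytosolic ribosomal proteins and for late embryogenesis abundant proteins, and overlap for nuclear photosynthesis genes and for the sperm cell.

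Cytosolic ribosomal proteins, the building blocks of the ribosome that translates nuclear messages, had 6 called members, all lower in TF2. Of 113 tested genes from a list made by locus after the values were seen, 6 (5.31%) were lower in TF2 and 0 higher, against 1.69% of all probe sets with 1 gene. Their median was −0.55, against 0.07 over all probe sets with 1 gene, and 89 of the 113 differences lay below 0. AT2G19730, for a protein of the large subunit, read 386 and 499.6 in TF1, 90.9 and 102 in TF2 and 721 and 676 in wild type (−2.09, adjusted p = 0.000387). AT5G20290, for a protein of the small subunit, read 368 and 438, 103 and 92.3 and 1254 and 1012 (−1.95, adjusted p = 0.000674). The summed signal of the 113 genes was 18978 and 20532 in TF1 and 12520 and 12939 in TF2, against 39471 and 38457 in wild type, with no overlap between groups. The other called members (AT2G01250, AT5G35530, AT3G60245 and AT3G49910) differed by −1.40 to −1.11. The count of lower calls was 3 without TF2 replicate 2, 4 without the filter and 24 with all 6 arrays in the fit. Genes of the ribosomal protein family often have close paralogs, whose transcripts a probe set may share. The 25S ribosomal RNA control, which is not a protein-coding transcript, went the other way and was highest in TF2, and its part was not tested.

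Named after their values were seen, 7 called genes had roles in respiration or carbon metabolism, and all 7 were lower in TF2, as were 108 of the 143 called genes of any kind. How many tested genes have such roles was not counted. CYTC-1, for cytochrome c, read 318 and 328 against 150.5 and 134 (−1.13, adjusted p = 0.0225). AT3G10860, for a subunit of the cytochrome b-c1 complex, read 248 and 244 against 76.0 and 71.7 (−1.62, adjusted p = 0.00861). The cytosolic isocitrate dehydrogenase gene cICDH differed by −1.43, GAPC2, for a cytosolic glyceraldehyde-3-phosphate dehydrogenase, by −0.94, AT3G08610, for a subunit of respiratory complex I, by −0.83, ACLA-1, for a subunit of ATP citrate lyase, by −0.73 and AT5G19760, for a mitochondrial dicarboxylate and tricarboxylate carrier, by −0.70. GAPC2 is also the kind of transcript that the GAPDH controls report, and it read 375 and 366 in TF1, 169 and 210.2 in TF2 and 1139 and 996 in wild type.

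Late embryogenesis abundant proteins, which accumulate in drying seeds and pollen and shield proteins and membranes, had members that were lower in TF2. Of 16 tested genes from a list made by locus after the values were seen, 6 were lower (37.5%, against 1.69% of all probe sets with 1 gene) and 0 higher, with a median of −0.65 and 3 differences above 0. AT5G38760, among the brightest genes that were lower, read 12656 and 14585 in TF1, 5859 and 5265 in TF2 and 10458 and 8771 in wild type (−1.29, SE 0.14, adjusted p = 0.000175). AT3G02480 read 2954 and 2987 against 864 and 787 (−1.84, adjusted p = 7.89e-06), and AT5G53820 1221 and 1303 against 544 and 470.3 (−1.30, adjusted p = 0.000482). The summed signal of the 16 genes was 27279 and 29718 in TF1 and 16498 and 14787 in TF2, with the wild type at 29162 and 26721, so TF1 overlapped the wild type and TF2 lay under both. AT5G38760 alone gave 12656 of the 27279 in TF1 replicate 1. The median signal over the 16 genes was 283 and 250.4 in TF1, 164 and 167 in TF2 and 729 and 745 in wild type, so by the median member TF1 too lay under the wild type. The count was 3 without TF2 replicate 2 and 5 to 6 without each other array. The list of late embryogenesis and desiccation genes matched by symbol, of whose 6 tested members 4 are on both lists, had 0 called by limma, 2 with an unadjusted p under 0.05, and a median of −0.39.

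The chaperones called on the list of heat shock and folding genes were lower in TF2. Of 11 tested heat shock and folding genes 2 were lower (1.69% of all probe sets with 1 gene were), 0 were higher and the median was −0.39. That median was −0.06 without TF2 replicate 1, −0.21 without TF1 replicate 2, −0.63 without TF2 replicate 2 and −0.67 without TF1 replicate 1. AT5G48570, for a heat-induced peptidyl-prolyl isomerase of the FKBP type, read 627 and 538 in TF1, 61.1 and 34.3 in TF2 and 667 and 668 in wild type (−3.41, SE 0.29, adjusted p = 2.60e-05). Hsp70-2, for a chaperone of the HSP70 family, read 221 and 225 against 23.3 and 23.5, with wild type at 261 and 309 (−2.82, SE 0.39, adjusted p = 0.00146). For both genes wild type lay above both lines and TF2 stood far below. ATERDJ3B, a DnaJ protein of the endoplasmic reticulum, differed by −1.34 (adjusted p = 0.00212) and AT5G25530, another DnaJ gene, by 0.77 (adjusted p = 0.0216), and both were named after their values were seen.

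**Figure D5:**
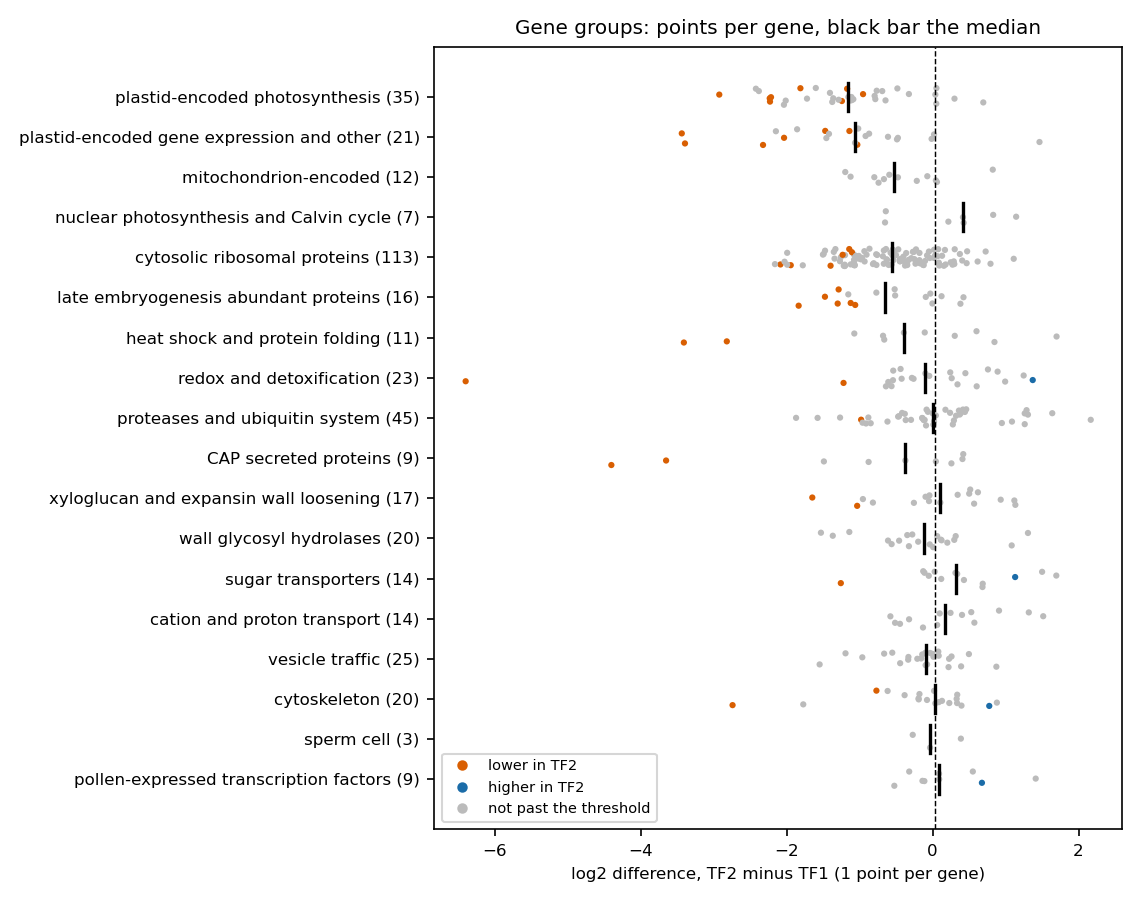
Log2 difference, TF2 minus TF1, of the tested genes of 18 groups, with 1 point per gene, the number of genes in brackets and a black bar for the median. Orange points were lower and blue points higher in TF2 at limma's adjusted threshold, grey points were not past it, and the dashed line marks the median of all tested probe sets. The bars for plastid-encoded genes lie near −1.1, that for cytosolic ribosomal proteins at −0.55 and those for vesicle traffic, cytoskeleton and sperm cell genes near the dashed line.

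Transport and signalling genes were called in small numbers and in both directions. SWEET transporters move sugars across membranes along their gradient, and SWEET8 is known from pollen nutrition. SWEET8 read 289 and 297 in TF1, 134 and 102 in TF2 and 672 and 589 in wild type (−1.26, SE 0.26, adjusted p = 0.0217). SWEET1 went the other way, from 213 and 183 to 491 and 401 (1.13, SE 0.22, adjusted p = 0.0139). Among 14 tested sugar transporters these were the calls, against 2.25% called of all probe sets with 1 gene. The median was 0.32, with 0.05 without TF2 replicate 2 and 0.20 without TF1 replicate 1. The SWEET8 call was lost without replicate 2 of either line and the SWEET1 call without either TF2 replicate, at adjusted p-values up to 0.127 and 0.118. AT1G67640, of the amino acid transporter family, read 712 and 788 against 60.2 and 77.5 (−3.29, SE 0.23, adjusted p = 4.44e-06), with wild type between the lines at 142 and 142. Of 14 tested genes for cation and proton transport and 10 for amino acid, peptide, nitrate and ABC transport on the symbol lists 0 passed limma's adjusted threshold, 2 and 1 had an unadjusted p under 0.05, and the medians were 0.17 and 0.68. Leaving out an array moved these medians to between 0.07 (without TF2 replicate 2) and 0.30 (without TF1 replicate 1) and between 0.23 (without TF1 replicate 2) and 1.03 (without TF1 replicate 1).

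AT1G76640, for a calmodulin-like protein, which binds calcium and relays its signal, read 866 and 703 in TF1 and 106 and 86.6 in TF2 (−2.91, SE 0.22, adjusted p = 8.61e-06). Wild type lay between the lines at 353 and 300.3. It was the called member of 4 tested calcium signalling genes, whose median was −1.11 (1.69% of all probe sets with 1 gene were lower). AT3G03430, a bright gene for a small calcium-binding protein, differed by −0.74 (adjusted p = 0.00924), a call lost without TF2 replicate 2 (adjusted p = 0.114). AT1G69840, of the band 7 family of membrane scaffold proteins, read 817 and 846 against 69.0 and 43.5 (−3.71, SE 0.25, adjusted p = 3.11e-06). Of 6 tested genes for pollen tube signalling and receptors 0 passed limma's adjusted threshold, 0 had an unadjusted p under 0.05 and the median was 0.11. Of 25 for vesicle traffic, which brings wall material to the tube tip, 0 passed, 1 had an unadjusted p under 0.05 and the median was −0.10. Likewise 0 passed among 9 genes of lipid metabolism, of which 1 had an unadjusted p under 0.05, and 7 of ribosome biogenesis, of which 0 had. Of 8 for the cell cycle and histones and 4 for callose and cellulose synthesis 0 passed. On both of these lists 1 gene had an unadjusted p under 0.05. Such lists were matched by symbol and can miss genes, so a count of 0 does not show an unchanged function. By the roles given by hand, 4 called genes had a lipid role (1 higher, 3 lower).

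The cytoskeleton had 20 tested genes, of which 2 were lower and 1 higher, with a median of 0.03. Of all probe sets with 1 gene 1.69% were lower and 0.563% higher. WLIM2a, for a LIM protein that bundles actin filaments, read 304 and 259 in TF1, 19.5 and 55.4 in TF2 and 115 and 122 in wild type (−2.74, SE 0.41, adjusted p = 0.00247). TUB1, for a beta-tubulin, differed by −0.77 (adjusted p = 0.0335) and XIJ, for a myosin that carries vesicles along actin, by 0.78 (adjusted p = 0.0357). The calls of TUB1 and XIJ were lost under 4 and 5 of 11 alternatives. Of 45 tested proteases and ubiquitin genes 1 was lower, the subtilase gene SBT3.12, at 1567 and 1269.7 against 846 and 596 (−0.98, adjusted p = 0.0132), a call lost without TF2 replicate 2 (adjusted p = 0.157), and the median was 0.00. DELTA-VPE, a protease gene called lower above, is not on that symbol list. By the roles given by hand, 7 called genes served protein turnover (2 higher, 5 lower). Redox and detoxification genes had 23 tested members with a median of −0.10. Of them GILT and the aldehyde dehydrogenase gene ALDH7B4 (−1.22, adjusted p = 0.0247) were lower and PRXR1 higher. ALDH7B4 lost its call without TF1 replicate 1 (adjusted p = 0.121) and without either TF2 replicate. Among bright genes with a lower signal in TF2, AT1G74010, for a protein like strictosidine synthase, read 5884 and 5811 against 2438 and 2565 (−1.22, adjusted p = 0.000158), with wild type below both at 1844 and 1549. AT3G28980, a gene of unknown function, read 9199 and 9036 against 4032 and 3891 (−1.20, adjusted p = 0.000164), and AT3G02555 differed by −0.66, a call lost under 3 alternatives at adjusted p-values up to 0.238.

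Transcription factor genes were called in both directions. Of 9 tested pollen-expressed factors 1 was higher, and of 39 other factors 1 was higher and 1 lower. AGL65 counts on both lists. Over all probe sets with 1 gene, 0.563% were higher and 1.69% lower, and lists this short give no firm rate. AGL65, a MADS-box factor of pollen maturation, read 916 and 881 in TF1, 1541 and 1347 in TF2 and 581 and 448 in wild type (0.68, SE 0.15, adjusted p = 0.03), and was the called member of 9 tested pollen-expressed factors, whose median was 0.09. That call was lost with median centring (adjusted p = 0.0776) and without TF1 replicate 2 or either TF2 replicate. STZ, a zinc finger factor of salt and cold responses, read 296 and 302 against 99.4 and 138 (−1.28, SE 0.26, adjusted p = 0.0213), as the called gene beside AGL65 of 39 tested other factors. The STZ call was lost without TF1 replicate 2 and without TF2 replicate 1, at adjusted p-values up to 0.0904.

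Markers of the pollen cells did not pass the threshold. The sperm cell markers with a probe set of their own, 3 of 12 listed, differed by −0.04 for MGH3, a sperm-specific histone, −0.27 for TET11 and 0.39 for TET12, and their summed signal was 1426 and 1391 in TF1 and 1469 and 1281 in TF2. Of 25 vegetative cell and pollen tube markers 4 had such a probe set, and the tube receptor kinases ANX1 and ANX2 differed by 0.11 each, ACT11 by 0.08 and ACT12 by −0.18. Their summed signal overlapped between the lines, at 13704 and 12114 in TF1 and 14306 and 12653 in TF2, and lay above that of wild type (7877 and 7669). The tapetum marker AMS, 1 of 14 listed, read 2.54 and 47.8 in TF1 and 91.9 and 56.6 in TF2 (adjusted p = 0.389), and the flower marker DFR, 1 of 10, read 190 and 175 against 74.7 and 139 (adjusted p = 0.299). For leaf, the plastid-encoded and the nuclear photosynthesis genes given above stand as markers, and they differed in outcome. Of the 35 plastid-encoded genes 8 were lower in TF2 and 0 higher, and their summed signal was lower in TF2 without overlap. The summed signal of the 7 nuclear genes overlapped between the lines, with 0 called.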

How the data were processed

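Total RNA of mature pollen was hybridised to 6 Affymetrix ATH1 arrays, of which 4 entered the test. The deposited values are linear signal intensity per probe set. MAS5 and GCOS are named, per the submitters' processing notes, with no version or setting. The mean signal trimmed by 2% at each end was 100.0 on each of the arrays, a scaling that was left as it is. Present or absent calls were not used, and precision is limited by the number of arrays.

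Of 22810 probe sets 64 AFFX controls were left out. The annotation gave 1 gene for 13513, several for 503 and none for 8730, which are unnamed here, and 13484 were matched to RefSeq (TAIR10.1), used for names and gene order. Signals were taken as log2(signal + 9.39), the 25th percentile of the 4 arrays, and the 11373 probe sets at or above the median of the mean log2 value were fitted with limma 3.58.1 in R 4.3.3 (lmFit, eBayes with an intensity trend, two-sided, Benjamini-Hochberg adjustment, threshold 0.05). With 2 arrays a line an exact permutation test cannot pass that threshold. Simulated data for TF2 against TF1 covered 11373 probe sets. There 27% of changes of 1 log2 unit and 53% of changes of 2 were called, with 4 false calls. The simulated arrays were drawn with the spread of the trend fit and fitted the same way, so they do not check that spread.

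The members, gene lists and tests were chosen with earlier results of these data known. Genes were named by rule: the 15 highest and 15 lowest called with 1 gene and arrays apart, the 6 brightest called in each direction, up to 4 called members of each list, BZIP34 and AT1G70790. Others are said to be named after their values were seen. Lists were matched by symbol or synonym, members matched by letters alone were removed after values were seen, and 4 lists by locus were added then. A likeness search of proteins in the naming rule was not run, because no protein sequences were used here. Alternatives were 2 other pseudocounts, no filter, no trend, quantile normalization, median centring, all 6 arrays, the replicate number as a block and each array left out.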

Additional observations from a re-analysis of the deposited data

Results flagged for a closer look

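The manufacturer control probe sets stayed out of the tests, and several differed between a line and wild type. The 2 described here had a mean far above the wild-type level in a line. The control U12639, whose target is not named in the tables used here, so that whether it reports a pollen transcript is not known, had a mean of 1870 on the TF1 arrays (2141 and 1600), against 18.95 in wild type (2.15 and 35.8) and 22.7 in TF2. The 25S ribosomal RNA control had a mean of 9342 on the TF2 arrays (9968 and 8717), against 401.3 in wild type (478 and 324). In TF1 this control read 260.2 and 2749, so the TF1 arrays differed from each other by more than those of either other group.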

How the results depend on the processing

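Of the 267 probe sets called, all that were measured under an alternative kept their direction there, under each alternative run. That was largely fixed in advance, for these and for the named probe sets below. Their arrays did not overlap between the lines, so leaving out an array or changing the pseudocount could not turn a difference. The difference itself is the same with no filter, no trend or the replicate block. The number of calls was 171 without the filter (30 higher, 141 lower), where 22746 probe sets shared the adjustment. It was 529 with all 6 arrays (97 higher, 432 lower) and 563 with the replicate block (176 higher, 387 lower). It was 0 without the trend (0 higher, 0 lower), with 1283 at an unadjusted p under 0.05. Leaving out an array gave 151 to 307, with 7 to 140 higher and 142 to 215 lower. Of the 267, 187 were called again in the same direction without TF1 replicate 1, 172 without TF1 replicate 2, 163 without TF2 replicate 1 and 125 without TF2 replicate 2. The cause was not tested. The lone array left in a line was then assumed to vary like the other line. Same-numbered TF1 and TF2 arrays did not deviate together over the tested probe sets (correlation of their deviations −0.005). The highest signal on an array was larger in replicate 2 of both lines (48865 and 63240 in TF1, 52390 and 61119 in TF2). Whether same-numbered arrays share a batch cannot be told from these values. The other pseudocounts, quantile normalization and median centring gave 236 to 311 calls. Of the 61 named probe sets 27 kept their side of the threshold under each of the 11 alternatives other than no trend in which they were measured, and 0 changed direction. On the simulated data 27% of changes of 1 log2 unit and 53% of changes of 2 were called, so many differences of these sizes can be missed. Smaller changes were not simulated, and dim probe sets were not looked at apart. The simulation took the spread of the trend fit as given. It thus does not check the calls, of which 0 were left without the trend.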
